A study of Homo sapiens with 6 samples.

Results

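Thyroid hormone handling was followed through 9 genes in hepatocyte-like cells given hexafluoropropylene oxide trimer acid (HFPO-TA), a perfluoroalkyl ether carboxylic acid. The genes are TTR, SERPINA7, SLC16A10, DIO1, DIO3, THRA, THRB, KLF9 and THRSP, picked by symbol for their roles in carrying, importing, deiodinating and responding to thyroid hormone. All 9 were found among the 60623 genes listed, and 8 were among the 15664 genes tested. RNA was sequenced from 3 libraries of cells given HFPO-TA and 3 libraries of cells given 0.1% DMSO. The cells of both groups were made from the human embryonic stem cell line H9, so the series holds 1 genetic background; they had been driven towards hepatocytes and are described by the submitters as hepatoblasts at day 19. A dose of 10 is recorded for HFPO-TA, in a unit that is garbled in the submitters' text and is not given here. DMSO is recorded for the control libraries only. Nothing in the labels says whether the libraries of a group were separate cultures, or whether the medium held thyroid hormone, and the p-values therefore reflect only how far these libraries differ, which may be technical variation.

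Thyroid hormone leaves the thyroid mainly as the prohormone T4 and travels in blood bound to carrier proteins that the liver makes: thyroxine-binding globulin (TBG, from SERPINA7), transthyretin (TTR) and albumin. Membrane transporters let it into cells, where deiodinases either activate it to T3 or inactivate it, and T3 acts by binding the nuclear receptors THRA and THRB on target genes, usually beside a retinoid X receptor. Several perfluoroalkyl acids are known to compete with T4 for its binding site on transthyretin. The values here are RNA levels and do not measure that binding.

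The promoter of SERPINA7 is shown because this gene had the largest log2 difference of the 9, and that of DIO1 because it is a known target of thyroid hormone whose 2 groups of libraries did not overlap. Both run 5′ to 3′ from 250 bases before to 50 bases after the RefSeq start site (build GRCh38.p14), SERPINA7 from chrX:106038678-106038977 on the minus strand and DIO1 from chr1:53893937-53894236 on the plus strand. Capitals in SERPINA7 mark GTTAAT, the 6-letter core of the site of the hepatic factor HNF1, and the TATA box TATAAA. Capitals in DIO1 mark the 6-letter core AGGTCA bound by the thyroid hormone receptors and its variant GGGTCA, which both appear there as their reverse complements.
SERPINA7: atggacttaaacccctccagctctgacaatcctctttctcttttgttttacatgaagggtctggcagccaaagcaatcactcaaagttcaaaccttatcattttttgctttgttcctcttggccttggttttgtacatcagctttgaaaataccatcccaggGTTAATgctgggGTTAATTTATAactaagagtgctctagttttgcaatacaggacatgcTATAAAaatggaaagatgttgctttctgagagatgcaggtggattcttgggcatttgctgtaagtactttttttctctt
DIO1: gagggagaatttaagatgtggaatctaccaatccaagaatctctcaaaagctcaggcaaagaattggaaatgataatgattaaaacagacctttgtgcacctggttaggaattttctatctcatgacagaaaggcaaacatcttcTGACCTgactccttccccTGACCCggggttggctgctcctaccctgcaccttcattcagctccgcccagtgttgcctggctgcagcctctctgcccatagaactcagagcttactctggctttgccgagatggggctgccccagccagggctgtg

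In SERPINA7 the 2 GTTAAT matches began 88 and 76 bases before the start site. A TATAAA match began 29 bases before it, and a second one, on the opposite strand, began 71 bases before it and shares a letter with the nearer GTTAAT. On either strand GTTAAT was found in 6.88% and TATAAA in 11.5% of the 35116 promoter windows of the same length. In DIO1 the 2 cores began 105 and 87 bases before the start site. AGGTCA was found in 13.8% and GGGTCA in 14.1% of windows. GGGTCA followed by AGGTCA with 12 letters between them, as in DIO1 (either strand), was in 3 windows, or 0.009%. Another fixed spacing, AGGTCA repeated with 1 letter between, was also rare, at 0.023%. The spacing of 12 is that of DIO1, whose window is among the 3, so its rarity does not set the DIO1 matches apart. Thyroid hormone is known to induce human DIO1 through elements in its promoter, and these matches are letters in a window, not tested sites. The classical element, AGGTCA repeated with 4 letters between, present in 0.02% of windows, was in none of the windows of these genes. RefSeq windows were matched for 8 of the 9 genes (9 windows, 2 of them for THRB), all except TTR. Their GC content ran from 32.7% in KLF9, 39.0% in SERPINA7 and 50.3% in DIO1 to 73.0% in DIO3 and SLC16A10 and 86.3% in THRA, against a median of 58.7% over all windows.

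The deposited values are TPM, a gene's share of all transcripts after correction for its length. TPM keeps no sequencing depth, so the depth is unknown and no counting error is given. Differences were tested on log2(TPM + 1) with limma over all 15664 genes that reached 1 TPM in 3 or more libraries. Genes were called changed at a Benjamini-Hochberg adjusted p under 0.05. That test called 0.492% of the tested genes, 0.185% higher and 0.306% lower with HFPO-TA. A letter in the submitters' file names, unexplained by the labels, separates replicate 1 from replicates 2 and 3 in both groups. It is used below as a possible batch.

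None of the 8 tested genes was called by limma over all genes. At an unadjusted p under 0.05 there were 4, TTR, SERPINA7, DIO1 and SLC16A10, all lower with HFPO-TA, where 6.56% of all tested genes were lower and 5.45% higher by that rule. In 3 of the 8, TTR, SERPINA7 and DIO1, every HFPO-TA library lay below every DMSO library, and 9.40% of all tested genes separated in that direction. The median log2 difference of the 8 genes was -0.09, beside -0.01 over all tested genes. The other 4 tested genes, DIO3, THRA, THRB and KLF9, had groups that overlapped. In bulk RNA, fewer cells of a type and less RNA per cell cannot be told apart.

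**Figure D1:**
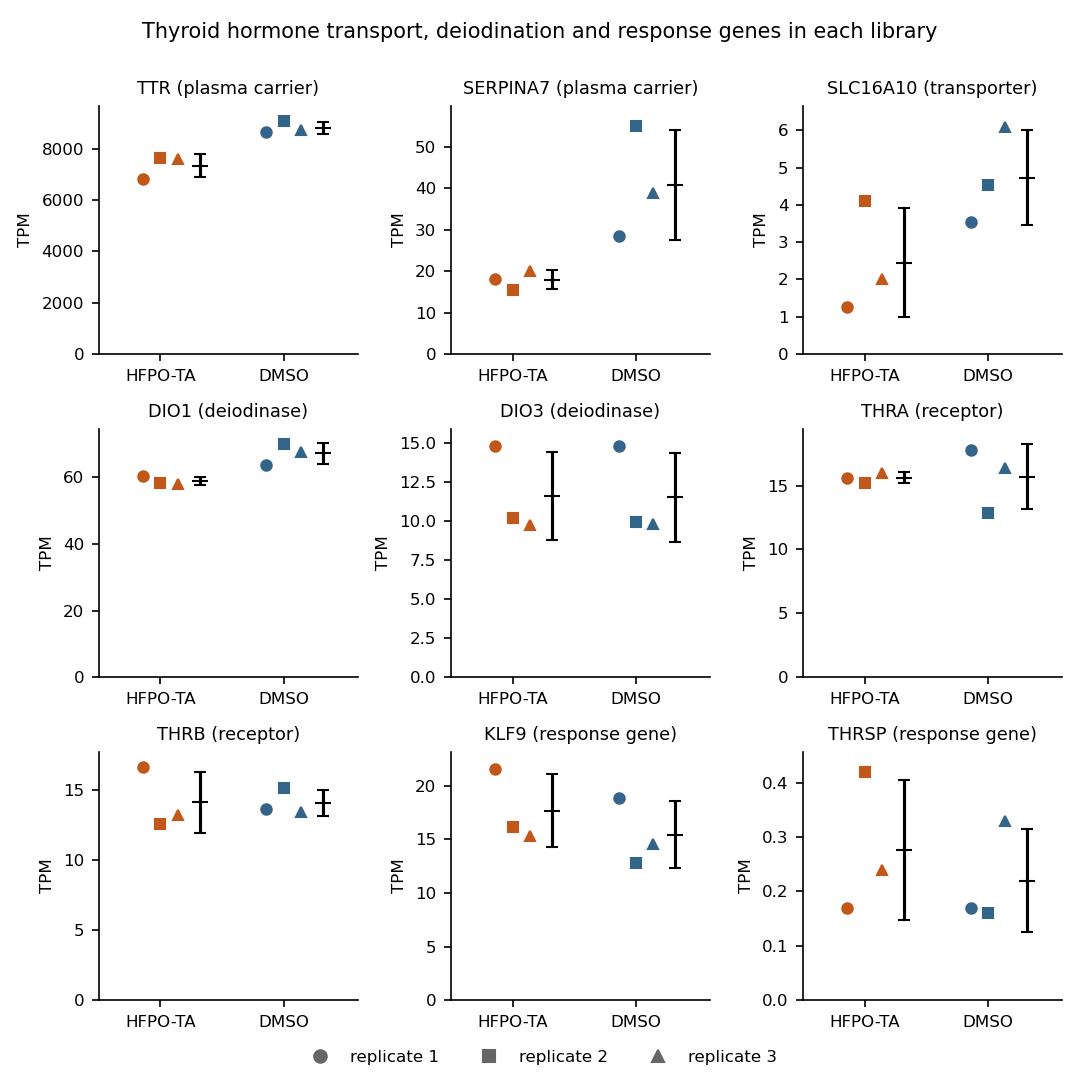
TPM of each gene in every library, HFPO-TA in orange and DMSO in blue, with marker shapes for the replicate number and the group mean ± SD (n = 3) beside the points. TTR, SERPINA7 and DIO1 separate by group, while the DIO3 panel separates replicate 1 from replicates 2 and 3 in both groups.

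TTR encodes transthyretin, which carries T4 and, with retinol-binding protein, vitamin A. It stood at 6822, 7629 and 7595 TPM in the HFPO-TA libraries, against 8646, 9096 and 8719 TPM in the DMSO libraries. The groups did not overlap, and the highest HFPO-TA library was still below the lowest DMSO library. The mean was 7349 ± 456 TPM with HFPO-TA and 8820 ± 242 TPM with DMSO (SD, n = 3 each), 16.7% lower. The log2 difference was -0.26 (SE 0.05, 95% confidence interval -0.39 to -0.14), and limma's adjusted p of 0.0878 missed the threshold. TTR was the 12th, 11th and 11th most abundant gene in the HFPO-TA libraries and the 9th, 8th and 9th in the DMSO libraries, and by itself held 0.685% to 0.766% of all TPM with HFPO-TA and 0.868% to 0.913% with DMSO. The gene lies on chromosome 18 from 31557010 to 31599021 (GENCODE 29, GRCh38, plus strand), and no annotated gene overlaps it.

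TTR passed the test under 3 of the 18 other settings tried: with the file-name letter as a term (adjusted p = 0.0242), with replicates 2 and 3 alone (-0.23, adjusted p = 0.0466) and without HFPO-TA replicate 1 (-0.21, adjusted p = 0.0397). Replicate 1 alone, with 1 library a group and so no test, gave -0.34. HFPO-TA replicate 1 was the lowest of the 6 libraries.

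SERPINA7 encodes TBG, the carrier with the highest affinity for T4, and had the largest log2 difference of the 8 tested genes. It stood at 18.1, 15.5 and 20.1 TPM in the HFPO-TA libraries, against 28.5, 55.0 and 38.9 TPM in the DMSO libraries. The HFPO-TA libraries lay close together, the DMSO libraries were spread widely, and the groups did not overlap. The mean was 17.9 ± 2.32 TPM with HFPO-TA and 40.8 ± 13.3 TPM with DMSO (SD, n = 3 each), a ratio of 0.439. The log2 difference was -1.10 (SE 0.22, 95% confidence interval -1.63 to -0.58), with an adjusted p of 0.104 from limma. It passed in 1 of the 18 other settings, without DMSO replicate 1 (-1.33, adjusted p = 0.0458), the lowest DMSO library. Without DMSO replicate 2, the highest, the log2 difference was -0.87 (adjusted p = 0.172). Replicates 2 and 3 alone gave -1.34 (adjusted p = 0.0536) and replicate 1 alone gave -0.63 with no test. SERPINA7 lies on chromosome X from 106032442 to 106038738 on the minus strand, with no overlapping gene; the promoter with the paired GTTAAT matches is the one printed above.

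Per unit length TTR was far more abundant than SERPINA7 and ALB, the other main carriers of T4, in these cells. Its TPM was 377, 492 and 377 times that of SERPINA7 in the HFPO-TA libraries and 303, 165 and 224 times in the DMSO libraries. Against ALB, the gene of albumin, it was 126, 115 and 103 times higher with HFPO-TA and 85.7, 70.7 and 80.3 times with DMSO. Neither ratio overlapped between the groups. ALB itself stood at 54.1, 66.4 and 73.5 TPM with HFPO-TA and 101, 129 and 109 TPM with DMSO (log2 difference -0.80, SE 0.13, adjusted p = 0.0522). ALB passed under 4 of the 18 other settings: with a filter of 5 TPM (adjusted p = 0.03), with the file-name letter as a term (0.0135), with replicates 2 and 3 alone (0.0423) and without HFPO-TA replicate 1 (0.0342). Its adjusted p reached 0.247 without DMSO replicate 3.

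Beside the lower values of TTR and SERPINA7, the fibrinogen chains FGG, FGA and FGB, which hepatocytes secrete, fell. They were the called genes among 14 hepatocyte and hepatoblast markers, 4 of which are also in the list of plasma carriers read below. Of the 10 markers outside that list 3 fell, none rose and 7 lay below 0, with a median log2 difference of -0.20. Over all tested genes 0.306% were called lower, 0.185% were called higher and 51.7% lay below 0. TF, DLK1 and CYP3A7 lay above 0, with log2 differences of 0.07, 0.15 and 0.13. The 3 that fell were all chains of fibrinogen. All 3 calls were lost without HFPO-TA replicate 2 (adjusted p = 0.0561 to 0.0782) or DMSO replicate 3 (0.0786 to 0.103), that of FGA also without HFPO-TA replicate 3 (0.0678) and that of FGB without DMSO replicate 2 (0.0618). They were also lost without a variance trend (0.0618 to 0.0775), and that of FGB without a filter (0.0583). The summed level of the 10 ran from 71612 to 74537 TPM with HFPO-TA and from 85151 to 95269 TPM with DMSO. Most of that sum was AFP, the fetal serum protein. AFP itself was not called (log2 difference -0.23, SE 0.05, limma's adjusted p = 0.0867). It passed under 2 of the 17 other settings that fitted it, the file-name letter as a term (0.0109) and replicates 2 and 3 alone (0.0162). With AFP and the mitochondrially encoded genes left out of the TPM total, the log2 difference was -0.28 for TTR (adjusted p = 0.0769) and -1.12 for SERPINA7 (adjusted p = 0.0995). Leaving these genes out changes only the TPM total and does not adjust for the markers. The part of the markers in the values of TTR and SERPINA7 was not tested. TTR is also a marker of the choroid plexus and of pancreatic islets. Of the islet markers INS, GCG and NKX6-1 were listed at 0 in every library and the list summed to 2.58 to 6.66 TPM with HFPO-TA and 3.77 to 5.60 TPM with DMSO. The one islet marker tested, SST, had a log2 difference of -0.40 (adjusted p = 0.67).

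Of 9 choroid plexus markers 6 were tested and none was called. Of the 6, 5 lay below 0, where 51.7% of all tested genes did, with a median log2 difference of -0.19. SLC5A5 lay above 0 (0.09). KCNJ13, a potassium channel, stood at 1.20, 0.56 and 1.41 TPM in the HFPO-TA libraries, against 2.44, 3.11 and 2.99 TPM in the DMSO libraries. Its groups did not overlap, with HFPO-TA the lower (log2 difference -0.92, SE 0.21, limma's adjusted p = 0.116). Over all tested genes 9.40% separated in that direction, and these values were near the filter of 1 TPM. FOLR1, a folate receptor, averaged 4.06 ± 1.08 TPM with HFPO-TA and 5.40 ± 0.330 TPM with DMSO (log2 difference -0.36, SE 0.18, adjusted p = 0.476). LMX1A was listed at 0 in every library and OTX2 was at most 0.94 TPM. The list summed to 222 to 389 TPM with HFPO-TA and 268 to 398 TPM with DMSO, mostly AQP1, a water channel that other cells also make. The part of these markers in the values of TTR was not tested.

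SLC16A10, also called MCT10, moves T3 and aromatic amino acids across the cell membrane. It stood at 1.26, 4.10 and 2 TPM in the HFPO-TA libraries, against 3.55, 4.54 and 6.08 TPM in the DMSO libraries. The groups overlapped through HFPO-TA replicate 2, which lay above DMSO replicate 1. The mean was 2.45 ± 1.47 TPM with HFPO-TA and 4.72 ± 1.27 TPM with DMSO (SD, n = 3 each), and the log2 difference was -0.79 (SE 0.31, 95% confidence interval -1.50 to -0.08, limma's adjusted p = 0.361). At such low levels the added 1 TPM matters: with 0.1 TPM added the difference was -1.04. The fit that dropped replicate 2 of HFPO-TA gave -1.11 and the one that dropped replicate 1 gave -0.53, and neither called it. The gene lies on chromosome 6 from 111087503 to 111231194, and its exons share 177 bases with the antisense gene AL360227.1, which was listed at 0 in every library.

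DIO1, the type 1 deiodinase of liver, removes outer-ring iodine to make T3 and also degrades inactive forms. It stood at 60.4, 58.5 and 58.0 TPM in the HFPO-TA libraries, against 63.9, 70.1 and 67.7 TPM in the DMSO libraries. The groups did not overlap, by a gap of a few TPM between HFPO-TA replicate 1 and DMSO replicate 1. The mean was 59.0 ± 1.28 TPM with HFPO-TA and 67.2 ± 3.13 TPM with DMSO (SD, n = 3 each), 12.3% lower, with a log2 difference of -0.19 (SE 0.07, 95% confidence interval -0.34 to -0.03, limma's adjusted p = 0.313). None of the 18 other settings called it. The annotated gene lies on chromosome 1 from 53891239 to 53911086, and the RefSeq start site of the printed promoter is inside that interval.

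DIO3, the type 3 deiodinase, takes the inner-ring iodine off T4 and T3 and so inactivates them; it is typical of fetal tissue and is an imprinted gene. It stood at 14.8, 10.2 and 9.75 TPM in the HFPO-TA libraries, against 14.8, 9.93 and 9.81 TPM in the DMSO libraries. Replicate 1 was high in both groups and replicates 2 and 3 were alike in both, so the spread lay within the groups and not between them. Replicate 1 is the only library of its file-name letter in each group, so the letter and that library cannot be told apart. The mean was 11.6 ± 2.79 TPM with HFPO-TA and 11.5 ± 2.85 TPM with DMSO (SD, n = 3 each). The log2 difference was 0.01 (SE 0.20, 95% confidence interval -0.45 to 0.47, limma's adjusted p = 0.992), and replicate 1 alone gave -0.00090 with no test. DIO3 lies on chromosome 14 from 101561351 to 101563452. Its neighbour DIO3OS, which does not overlap it, stood at 10.3, 7.68 and 7.81 TPM with HFPO-TA and 10.1, 9.60 and 10.6 TPM with DMSO.

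The activating enzyme was the more abundant of the pair in every library. The TPM of DIO1 was 4.09, 5.74 and 5.95 times that of DIO3 in the HFPO-TA libraries and 4.32, 7.06 and 6.90 times in the DMSO libraries, and the groups overlapped. The ratio was lowest in replicate 1 of each group, where DIO3 was highest. DIO2, the remaining deiodinase, was near the filter, at 0.38, 1.19 and 1.93 TPM with HFPO-TA and 0.83, 0.47 and 1.33 TPM with DMSO; it was named after its values were seen.

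THRA and THRB encode the thyroid hormone receptors, of which THRB is the predominant form in adult liver. THRA stood at 15.6, 15.2 and 16.0 TPM in the HFPO-TA libraries, against 17.8, 12.9 and 16.4 TPM in the DMSO libraries. THRB stood at 16.6, 12.5 and 13.2 TPM in the HFPO-TA libraries, against 13.6, 15.1 and 13.4 TPM in the DMSO libraries. The groups overlapped for both receptors, and neither receptor was ahead of the other throughout. The TPM of THRA was 0.942, 1.21 and 1.22 times that of THRB with HFPO-TA and 1.31, 0.851 and 1.22 times with DMSO.

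The mean of THRA was 15.6 ± 0.425 TPM with HFPO-TA and 15.7 ± 2.55 TPM with DMSO (SD, n = 3 each), with a log2 difference of 0.01 (SE 0.13, 95% confidence interval -0.29 to 0.30, limma's adjusted p = 0.992). That of THRB was 14.1 ± 2.19 TPM with HFPO-TA and 14.0 ± 0.935 TPM with DMSO, with a log2 difference of -0.00084 (SE 0.12, 95% confidence interval -0.29 to 0.29, limma's adjusted p = 0.998). In both the sign of the log2 difference was opposite to that of the difference of means. The signs of THRA, THRB and DIO3 also flipped with a scaling of the libraries or with a library left out. THRA lies on chromosome 17 from 40058290 to 40093867, and its exons share 263 bases with the antisense gene NR1D1, whose level was 5.51, 2.27 and 2.75 TPM with HFPO-TA and 2.68, 1.80 and 1.86 TPM with DMSO. THRB lies on chromosome 3 from 24117153 to 24495756 and its exons share 42 bases with THRB-AS1, at 0.22 to 0.94 TPM with HFPO-TA and 0.26 to 1.20 TPM with DMSO. Whether the libraries kept strand is not given in the sources used here, so reads in these stretches cannot be assigned and the values carry that uncertainty.

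KLF9 encodes a zinc finger transcription factor that T3 induces in several tissues. It stood at 21.6, 16.1 and 15.4 TPM in the HFPO-TA libraries, against 18.9, 12.8 and 14.6 TPM in the DMSO libraries. The groups overlapped, and replicate 1 was the highest library of each group, as for DIO3. The mean was 17.7 ± 3.40 TPM with HFPO-TA and 15.5 ± 3.13 TPM with DMSO (SD, n = 3 each), with a log2 difference of 0.19 (SE 0.17, 95% confidence interval -0.21 to 0.58, limma's adjusted p = 0.742). The log2 difference was 0.04 without HFPO-TA replicate 1, 0.07 without DMSO replicate 2 and 0.33 without DMSO replicate 1, and none of the 18 other settings called it. It lies on chromosome 9 from 70384597 to 70414624 with no overlapping gene.

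THRSP, known as Spot 14, is a lipogenic protein whose gene is a classical T3 target in rodent liver. It stood at 0.17, 0.42 and 0.24 TPM in the HFPO-TA libraries, against 0.17, 0.16 and 0.33 TPM in the DMSO libraries. Every library was below the filter of 1 TPM, and the groups overlapped. In the fit without a filter its log2 difference was 0.06 (SE 0.13, limma's adjusted p = 0.897). THRSP lies on chromosome 11 from 78063861 to 78068351, wholly within NDUFC2-KCTD14 on the opposite strand and sharing 48 bases of exon with NDUFC2, whose level was 277 to 328 TPM with HFPO-TA and 289 to 342 TPM with DMSO, so even these low values may hold reads of its neighbour.

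TTR was the most abundant of the 9 in every library. By mean over the 6 libraries DIO1 and SERPINA7 followed, then a middle group of KLF9, THRA, THRB and DIO3, then SLC16A10 and THRSP. DIO1 was above SERPINA7 in each library, while neighbours in the middle group had overlapping ranges with HFPO-TA and with DMSO. SERPINA7 overlapped KLF9, THRA and THRB in the HFPO-TA libraries and lay above them in the DMSO libraries. KLF9 was above SERPINA7 in HFPO-TA replicates 1 and 2.

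**Figure D2:**
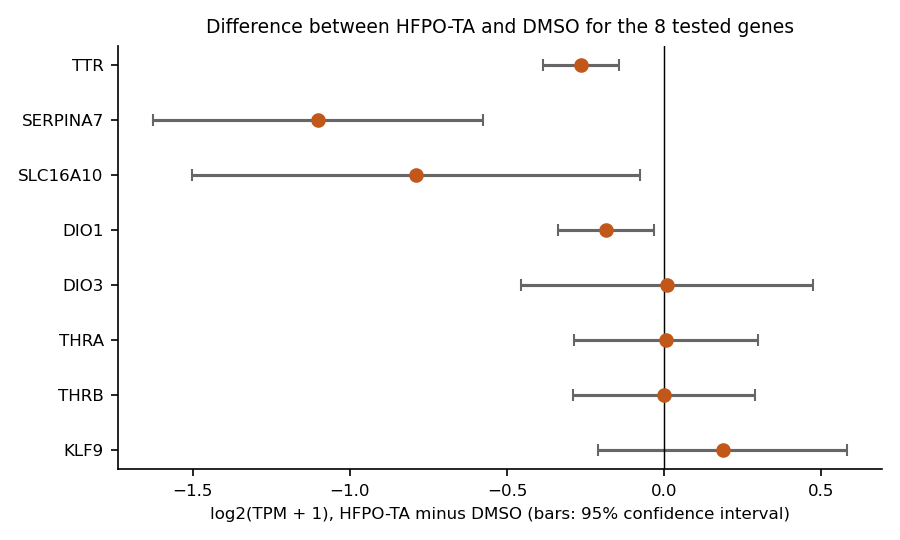
Log2 difference (HFPO-TA minus DMSO, on log2(TPM + 1)) of the 8 tested genes, with its 95% confidence interval from limma. The intervals of TTR, SERPINA7, SLC16A10 and DIO1 lie below 0 before adjustment and those of DIO3, THRA, THRB and KLF9 span it.

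Around these 9 genes, 6 lists of thyroid hormone genes were read in the same fit. Over all tested genes 51.7% lay below 0, with a median log2 difference of -0.01, and the counts below 0 stand beside that share. Of the plasma carriers, 6 of 6 were tested and none was called; 5 lay below 0, with a median log2 difference of -0.24. APOA1, which carries a minor share of the hormone in lipoprotein, was the most abundant, at 21420 ± 1484 TPM with HFPO-TA and 20579 ± 1354 TPM with DMSO (adjusted p = 0.799).

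Of 12 membrane transporters 8 were tested and none was called. Of the 8, 7 lay below 0 (median -0.26), among them SLC3A2 at -0.01. SLC7A5, the light chain of the LAT1 transporter, averaged 46.0 ± 5.64 TPM with HFPO-TA and 57.5 ± 6.23 TPM with DMSO (adjusted p = 0.306). Its partner chain SLC3A2 averaged 310 ± 7.49 TPM with HFPO-TA and 312 ± 12.1 TPM with DMSO (adjusted p = 0.97).

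Of 9 deiodination genes and cofactors, all tested, none was called and 6 lay below 0 (median -0.06). CRYM, a cytosolic protein that binds T3, averaged 6.11 ± 0.458 TPM with HFPO-TA and 8.44 ± 1.18 TPM with DMSO (log2 difference -0.40, SE 0.13, adjusted p = 0.27). Its groups did not overlap, with HFPO-TA the lower, where 9.40% of all tested genes separated in that direction.

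Of 11 conjugation genes 9 were tested, 1 fell and none rose (median -0.07). Over all tested genes 0.306% were called lower and 0.185% higher. The one that fell was SULT1E1, the estrogen sulfotransferase, which also sulfates iodothyronines and so marks them for breakdown. It stood at 1.02, 0.86 and 1.04 TPM in the HFPO-TA libraries, against 3.81, 5.64 and 5.77 TPM in the DMSO libraries. The groups were far apart, and the log2 difference was -1.61 (SE 0.18, limma's adjusted p = 0.0171). The call held without replicate 1 of either group and was lost without HFPO-TA replicate 2 or 3 or DMSO replicate 2 or 3 (adjusted p = 0.0765 to 0.158). It was also lost without a filter (0.0827), and with a filter of 5 TPM SULT1E1 was not fitted. Its HFPO-TA libraries lay near the filter of 1 TPM. SULT2A1, a steroid sulfotransferase, stood at 64.9, 69.8 and 73.7 TPM in the HFPO-TA libraries, against 43.4, 53.5 and 52.5 TPM in the DMSO libraries, the opposite direction (log2 difference 0.48, SE 0.10, adjusted p = 0.0908). It passed with the file-name letter as a term (adjusted p = 0.0256). SULT1A1 averaged 176 ± 27.5 TPM with HFPO-TA and 184 ± 17.1 TPM with DMSO (adjusted p = 0.871), and its reads may be shared with its close copies SULT1A2 and SULT1A3.

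Of 17 receptors and coregulators 16 were tested and none was called; 8 lay above and 8 below 0, with a median of 0.0023. HDAC3, the deacetylase of the corepressor complex that silences T3 targets without hormone, averaged 32.1 ± 1.47 TPM with HFPO-TA and 41.2 ± 1.17 TPM with DMSO (log2 difference -0.35, SE 0.07, adjusted p = 0.0996). RXRA, the partner receptor, averaged 25.2 ± 0.998 TPM with HFPO-TA and 29.8 ± 1.73 TPM with DMSO (adjusted p = 0.317). In both the groups did not overlap, with HFPO-TA the lower, where 9.40% of all tested genes separated in that direction. THRAP3, a coactivator-associated protein and the most abundant of the list, averaged 50.01 ± 3.16 TPM with HFPO-TA and 46.6 ± 3.68 TPM with DMSO (adjusted p = 0.711).

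Of 27 listed genes that thyroid hormone can regulate in liver, 24 were tested, 2 rose and none fell, where 0.185% of all tested genes were called higher and 0.306% lower. Of the 24, 11 lay above and 13 below 0, and the median was -0.02. The 2 that rose were PDK4 and PCK1, which fatty acid sensing receptors and other hormones also regulate. PDK4, which restrains glucose oxidation, stood at 28.0, 32.0 and 35.4 TPM in the HFPO-TA libraries, against 6.15, 5.39 and 4.84 TPM in the DMSO libraries (log2 difference 2.34, SE 0.13, adjusted p = 0.000546). PCK1, a gluconeogenic enzyme, stood at 271, 259 and 276 TPM in the HFPO-TA libraries, against 184, 128 and 146 TPM in the DMSO libraries (log2 difference 0.83, SE 0.12, adjusted p = 0.0418). Its call held without DMSO replicate 1 and was lost without any other single library (adjusted p = 0.0534 to 0.227). It was also lost without a filter (0.152), with a filter of 0.1 TPM (0.0588) and without a variance trend (0.122). FASN, the fatty acid synthase, was the most abundant of the list at 346 ± 9.82 TPM with HFPO-TA and 371 ± 63.0 TPM with DMSO (adjusted p = 0.822). Of the T3 targets among the 9 genes, DIO1 and KLF9 did not pass the test and THRSP was below the filter.

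**Figure D3:**
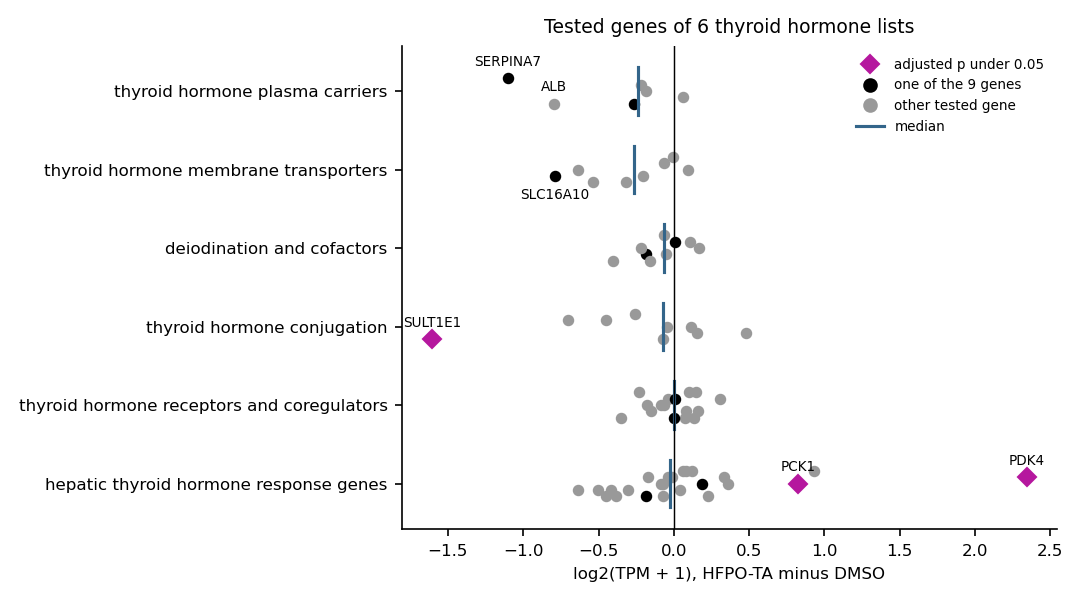
Log2 difference (HFPO-TA minus DMSO) of every tested gene in 6 thyroid hormone lists, with diamonds for adjusted p under 0.05, black points for the 9 genes of this account and a bar at each list's median. SULT1E1 lies far below 0 and PDK4 and PCK1 above it, while SERPINA7, ALB and SLC16A10 lie on the lower side without passing the test.

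Thyroid follicular cells, the source of the hormone, were not apparent. NKX2-1 was listed at 0 in every library, PAX8 reached at most 0.15 TPM and TG 1.51 TPM. The list summed to 79.0 to 115 TPM with HFPO-TA and 89.1 to 104 TPM with DMSO, nearly all of it DUOX2 and DUOXA2, an oxidase and its maturation factor that gut epithelium also makes. Of the 10 markers 3 were tested and none was called.

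Over the 6 libraries and 8086 genes with a mean of at least 10 TPM, the patterns most like that of TTR were those of KIF2A (Pearson r of log2 values 0.992), ARL15 (0.990) and GTPBP2 (0.989). Those most like SERPINA7 were NENF (0.990), CLRN3 (0.989) and STAG3L3 (0.988). With 6 points that share 2 groups, such values are a description only.

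**Figure D4:**
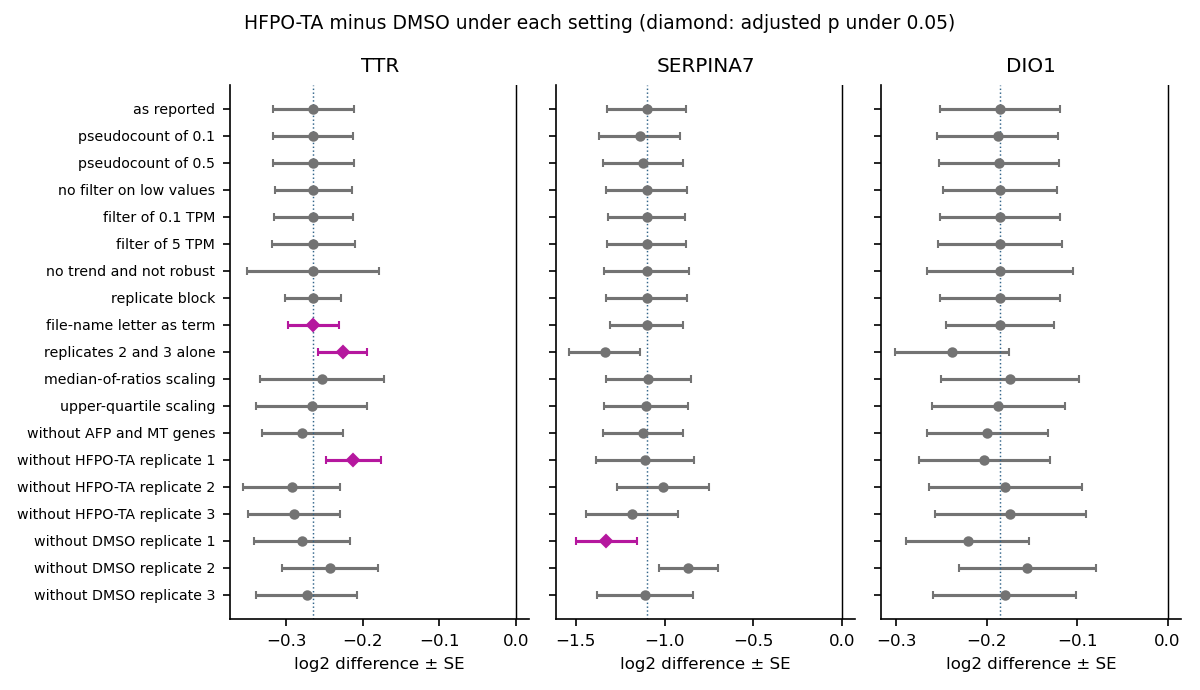
Log2 difference (HFPO-TA minus DMSO) with its SE for TTR, SERPINA7 and DIO1 as reported and under the 18 other settings, with diamonds for adjusted p under 0.05. All points lie below 0, and only 3 settings for TTR and 1 for SERPINA7 pass the threshold.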

How the data were processed

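The authors deposited 1 table per library with 1 value per gene. The column is headed FPKM, but the 6 columns sum to between 995690 and 996186, so the deposited values were read as TPM. Per the submitters' processing notes HISAT, Bowtie2 and RSEM were used with the build GRCh38.p13; no versions, library kit, strand setting or annotation are named in the labels. Depth is unknown. From these values log2(TPM + 1) was fitted with limma 3.58.1 (R 4.3.3) with treatment as the only term, a trended and robust variance, and 2-sided p-values adjusted over the 15664 genes that reached 1 TPM in at least 3 libraries. Fold changes on this scale understate those of low genes. The fit was tested on simulated data. The 9 genes, the lists and the tests were chosen with earlier results of these data known. Named genes are the 9, the called members of each list, its 2 smallest p-values and its most abundant member; exceptions are stated, and some listed genes are not reported here. Replicate numbers were not used to pair libraries. Positions are from GENCODE 29 (GRCh38), in which 58516 of 60623 identifiers were found. Promoters are RefSeq's (GRCh38.p14). Figures used matplotlib 3.10.9 in Python 3.11.15.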

Additional observations from a re-analysis of the deposited data

How the results depend on the processing

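All 18 settings kept TTR, SERPINA7, DIO1 and SLC16A10 lower and KLF9 higher with HFPO-TA wherever they were fitted. The number of the 9 genes called was 1 with the file-name letter as a term and 1 with replicates 2 and 3 alone (TTR in both), and 0 to 1 with a library left out. Genes called over the whole table numbered 77, and 10 without a filter, 29 with a filter of 0.1 TPM, 130 with one of 5 TPM, 11 without a variance trend, 39 after upper-quartile and 30 after median-of-ratios scaling, 207 with the letter term, 222 with replicates 2 and 3 alone and 6 to 291 with a library left out; fewer libraries or other genes were then fitted, and otherwise the cause was not tested. Of the called genes 37.7% were higher, against 60% without a filter, 72.7% without a trend and 25.5% to 100% with a library left out. With the replicate block 30 genes were called, 20 of them among the 77, and 0 of the 9. Deviations of same-numbered libraries correlated at 0.184, 0.123 and 0.0282, and those of differently numbered libraries at -0.158 to 0.0679. HFPO-TA replicate 1 correlated at 0.981 with DMSO replicate 1 and at 0.9775 and 0.9748 with HFPO-TA replicates 2 and 3. Whether the numbers are pairs was not tested, and the reported fit does not use them as pairs. The block ended the calls of SULT1E1 (adjusted p = 0.0535), PCK1 (0.0556), FGG (0.0719) and FGB (0.0802). Among the named genes, signs turned only in those that were not called, and the cause was not tested. With median-of-ratios scaling THRB was at 0.0093 and SLC3A2 at 0.003. Without AFP and mitochondrially encoded genes in the total DIO3 was at -0.0044 and THRA at -0.0076. With replicates 2 and 3 alone FASN was at 0.0193. With a library left out DIO3 ran from -0.167 to 0.188, THRA from -0.123 to 0.098, THRB from -0.116 to 0.0735, SLC3A2 from -0.0397 to 0.0149, SULT1A1 from -0.195 to 0.002, FASN from -0.193 to 0.0427 and DUOXA2 from -0.0029 to 0.288. The planned tests for counts were left out, since TPM are not counts.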

Other observations

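DIO3 closes an imprinted stretch of chromosome 14 that opens with DLK1, a hepatoblast marker, and the other genes of that stretch were looked up after the values of DIO3 were seen. DLK1 stood at 190, 226 and 252 TPM in the HFPO-TA libraries and 166, 220 and 214 TPM in the DMSO libraries. DLK1 was lowest in replicate 1 of each group, where DIO3 was highest. MEG3, a long non-coding RNA of the same stretch, was at most 0.14 TPM with HFPO-TA and 0.04 TPM with DMSO, and RTL1 at most 0.33 TPM with HFPO-TA and 0.19 TPM with DMSO. DIO3 and DLK1 are active on the paternal copy and MEG3 on the maternal copy, as background. The data hold RNA levels only, and which copy was read was not tested.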
